A study of Homo sapiens with 6 samples.

Results

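The 10 genes examined here act in glucose uptake, glycolysis and the response to low oxygen, and they were compared between AALE cells with and without forced expression of NRG1. They were chosen by gene symbol, and all 10 symbols matched 1 row each among the 57736 genes of the expected count table: the glucose transporters SLC2A1 and SLC2A3, the hexokinases HK1 and HK2, the regulators PFKFB3 and PFKFB4, the lactate dehydrogenase subunit LDHA, and the hypoxia-induced genes CA9, VEGFA and NDRG1. All 10 passed the filter on low counts that left 15421 genes for testing. AALE is an immortalised line of human bronchial basal epithelial cells that carries SV40 genes and hTERT, in both groups alike. Pools of stably transduced cells held either a control lentiviral vector (control 1 to 3) or a lentiviral vector for NRG1, the ligand neuregulin 1 of the ERBB receptor family (NRG1 1 to 3), and all were kept in small airway growth medium. PolyA RNA was sequenced. The labels name no oxygen level, glucose level or cell density, and no separate culture per library, so the p-values take in only how these libraries vary, and that variation may be technical.

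Glycolysis splits glucose taken up by carriers of the SLC2A family, and it begins when a hexokinase phosphorylates the sugar. The PFKFB enzymes set the level of fructose-2,6-bisphosphate, an activator of the committed step, and LDHA turns the end product pyruvate into lactate. When oxygen is low, the HIF transcription factors bind DNA at a short core sequence and raise many of these genes, together with CA9, VEGFA and NDRG1. Growth factor signalling through PI3K and MYC also acts on the same genes in epithelial cells.

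The core to which HIF factors bind holds the letters ACGTG or GCGTG. RefSeq windows (GRCh38.p14, 250 bases before to 50 after an annotated start) were held for 7 of the 10 genes, in 16 windows; SLC2A3, VEGFA and NDRG1 were not among them. ACGTG on either strand lay in 5 of the 16 windows, from 4 genes, and in 21.4% of all 34943 windows. With GCGTG counted too, it was 11 of 16 windows and 48.4% of all windows. The 250 bases before the start of 1 window of each of those 4 genes are shown to let a reader see the core in a hexokinase, a regulator, the lactate enzyme and the classical hypoxia marker. Capitals mark ACGTG or its reverse complement CACGT; where they read CACGTG, the core is present on both strands. The windows are chr2:74833877-74834126 for HK2, chr10:6202682-6202931 for PFKFB3, chr11:18394313-18394562 for LDHA and chr9:35673678-35673927 for CA9, all on the plus strand.
HK2: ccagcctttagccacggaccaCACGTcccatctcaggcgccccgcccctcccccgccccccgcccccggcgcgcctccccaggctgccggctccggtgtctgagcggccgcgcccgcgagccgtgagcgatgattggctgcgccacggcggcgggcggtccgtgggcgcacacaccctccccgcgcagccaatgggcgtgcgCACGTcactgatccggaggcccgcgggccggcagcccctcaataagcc
PFKFB3: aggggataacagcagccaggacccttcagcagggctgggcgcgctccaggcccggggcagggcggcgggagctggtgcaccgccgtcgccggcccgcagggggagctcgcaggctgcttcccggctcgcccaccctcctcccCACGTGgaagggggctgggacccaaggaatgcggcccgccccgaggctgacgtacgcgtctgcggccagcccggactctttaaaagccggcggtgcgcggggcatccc
LDHA: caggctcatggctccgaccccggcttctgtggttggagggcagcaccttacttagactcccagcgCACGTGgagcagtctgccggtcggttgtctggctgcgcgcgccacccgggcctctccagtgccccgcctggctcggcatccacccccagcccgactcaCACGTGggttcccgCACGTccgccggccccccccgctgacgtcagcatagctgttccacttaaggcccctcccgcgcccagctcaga
CA9: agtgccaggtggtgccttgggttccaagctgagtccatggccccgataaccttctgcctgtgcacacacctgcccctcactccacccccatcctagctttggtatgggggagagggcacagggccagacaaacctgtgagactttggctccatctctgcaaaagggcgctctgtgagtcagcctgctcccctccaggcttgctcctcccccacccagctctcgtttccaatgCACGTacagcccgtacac

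In CA9 the core began 18 bases before the start. LDHA held CACGTG beginning at 185 and at 87 bases before the start, and 1 further CACGT at 73 bases. PFKFB3 held CACGTG at 108 bases, and the HK2 window shown held CACGT at 229 and at 48 bases. A second HK2 window, which is not shown, held 4 matches to ACGTG on either strand. A match of letters is a description and shows no binding, and the window of a gene need not be the start used in these cells.

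Before the genes are described, the libraries need a word. Each library held between 8612234 and 13207620 expected counts, and CA9 rested on 18.6 to 69.6 expected counts. NRG1 itself was at 7.87 to 12.3 CPM (counts scaled to library size with edgeR's TMM factors) in control and at 3781 to 6647 CPM in the NRG1 libraries, as the labels say. Values below are given in the order of the library numbers. There were 2 leading principal components, with 44.5% and 27.3% of the variance. On the first, control 3 lay at -79.3 and NRG1 2 and NRG1 3 lay opposite at 41.3 and 40.5, with the other libraries between them. The second set NRG1 1 apart. Markers of basal epithelial cells were all above 1 CPM in every library (9 of 9; led by KRT5, KRT17 and ITGB4). Of these 9, KRT14, KRT17 and NGFR had every NRG1 library below every control, and the other 6 overlapped, with KRT15 (log2 fold change 2.30), DSG3 (0.91) and TP63 (0.09) above 0. The summed level, most of it KRT5 and KRT17, was 8985 to 12790 CPM in control and 6228 to 7339 CPM in NRG1. The 6 general epithelial markers summed to 1250 to 1526 CPM in control and 2008 to 2229 CPM in NRG1. Among them KRT19 had a mean of 219.5 CPM in control and 841 CPM in NRG1. Below 0 were 2 of the 6, KRT7 (log2 fold change -0.41) and KRT18 (-0.23). Of 7 fibroblast markers, only COL1A1 and DCN were tested; the list summed to 43.1 to 68.0 CPM in control and 20.2 to 28.1 CPM in NRG1, with none at 0 in every library. Leukocyte markers (7 genes) summed to 22.4 to 34.8 and 9.77 to 32.0 CPM, most of it CD68 and CSF1R, with CD3E at 0 in every library; endothelial markers (6 genes, 5 measured) stayed between 0.772 and 3.59 CPM with CDH5 at 0. The part of these shifts in the values that follow was not tested.

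Across the 10 genes, the carrier SLC2A3 and the stress gene NDRG1 had every NRG1 library below every control, and the other 8 overlapped between the groups. Tested by quasi-likelihood in edgeR and adjusted over all tested genes (Benjamini-Hochberg), 0 of the 10 passed the threshold of 0.05, against 1 gene of 15421 (0.00648%), NRG1 itself. At an unadjusted p under 0.05, SLC2A3 and NDRG1 were lower (2 of 10, against 6.51% of all tested genes) and 0 were higher (against 4.64%). DESeq2 on the same counts called only SLC2A3 (1 of 10, against 1.36%). Groups that did not overlap were found for 2 of 10 genes in the lower direction, where the background was 10.2%, and for 0 in the higher direction, where it was 9.36%. The median log2 fold change of the 10 was -0.13, beside 0.00 (-0.00029) for all tested genes, and 7 were below 0. Without control 3 and NRG1 1 the median of the 10 was -0.011, beside -0.0052 for all tested genes, and 5 were below 0. A p that misses the threshold does not show that a gene had the same level in both groups. In counts simulated from the levels and spread of these libraries, edgeR found a 2-fold change in 17 of 100 genes. It found a 4-fold change in 82 of 100, beside 14 false calls. Each gene was drawn on its own there, without libraries that stand apart over many genes, as control 3 and NRG1 1 do here. The simulated shares therefore cannot give the share found in the real libraries.

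**Figure D1:**
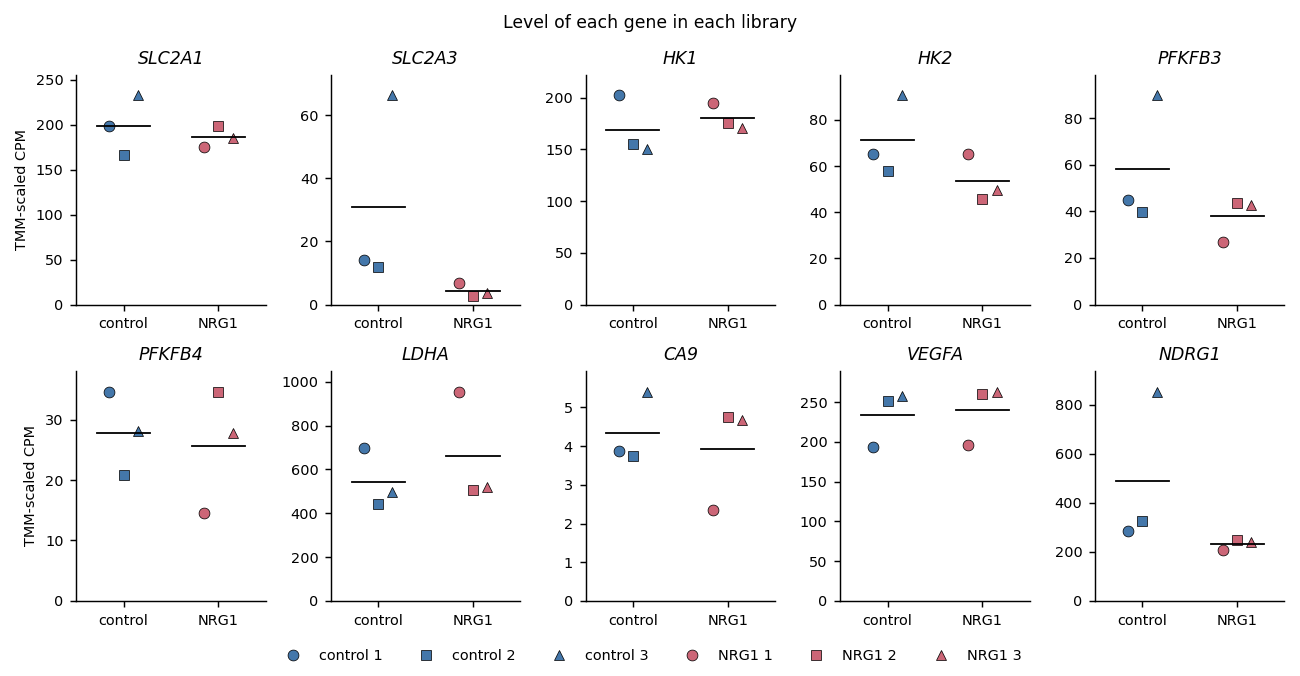
TMM-scaled CPM (vertical axis, from 0) of each of the 10 genes in each library; colours are the groups, shapes the library numbers, and bars the group means. SLC2A3 and NDRG1 have all 3 NRG1 libraries below all 3 controls, and control 3 is the highest library for 6 of the 10 genes.

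SLC2A3 encodes GLUT3, a high-affinity glucose carrier best known from neurons and induced in many cells by hypoxia. Its level was 14.2, 12.01 and 66.2 CPM in the controls and 6.68, 2.71 and 3.69 CPM in the NRG1 libraries. Control 3 was 5.06 times the mean of the other controls, and the highest NRG1 library lay below the lowest control. Group means were 30.8 ± 30.7 CPM and 4.36 ± 2.07 CPM (SD, n = 3 each), and the log2 fold change was -2.83 (SE 0.72; adjusted p = 0.35 in edgeR and 0.00221 in DESeq2). Without control 3 it was -1.61 (SE 0.39, adjusted p = 0.43 in edgeR). Without NRG1 1 it was -3.27 (adjusted p = 0.167), and edgeR then called 0 of the 10 members, beside 0.318% of all tested genes. With both control 3 and NRG1 1 left out, a 2 against 2 comparison chosen with their distance known, it was -2.04 (SE 0.25, adjusted p = 0.00614 in edgeR). That comparison called 1 of the 10 genes as lower and 0 as higher, beside 4.71% and 4.91% of all tested genes, and its p-values rest on 2 libraries a group left after that choice. Without the filter on low counts edgeR called 2 of the 10, SLC2A3 (adjusted p = 0.00167) and NDRG1 (adjusted p = 0.0466), beside 0.731% of all genes then tested.

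SLC2A14 is a near-identical copy of SLC2A3, so reads can fit both and their split is uncertain. SLC2A14 was assigned 0.109 to 1.16 CPM. The sum of the pair was 14.6, 12.6 and 67.4 CPM in control and 6.92, 2.99 and 3.80 CPM in NRG1, so the order of the libraries was that of SLC2A3 alone.

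SLC2A1 encodes GLUT1, the basal glucose carrier of most epithelial cells. It was at 198, 167 and 233 CPM in the controls and at 175, 199 and 185 CPM in the NRG1 libraries. All 3 NRG1 libraries fell inside the control range. The log2 fold change was -0.10 (SE 0.17, adjusted p = 0.836 in edgeR), and it was 0.023 without control 3. Within each library SLC2A1 exceeded SLC2A3 by 13.9, 13.8 and 3.51 times in expected counts in the controls, and by 26.2, 72.5 and 49.8 times in the NRG1 libraries. This ratio needs no scaling between libraries and was higher in all 3 NRG1 libraries. The ratio uses the same SLC2A3 counts as above, so it is no separate evidence. Its log2 mean was 3.13 ± 1.14 in control and 5.51 ± 0.74 in NRG1 (SD, n = 3 each), with a two-sided exact permutation p of 0.1, the smallest that 3 against 3 allows, and 0.2 after Benjamini-Hochberg adjustment over 4 ratios.

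HK1 and HK2 encode the hexokinases that trap glucose as glucose-6-phosphate: HK1 is the housekeeping form, and HK2 the form induced by growth factors and hypoxia. HK1 was at 202, 155 and 150 CPM in the controls and 194, 175 and 170 CPM in the NRG1 libraries, with a log2 fold change of 0.09 (SE 0.17, adjusted p = 0.85 in edgeR). HK2 was at 65.1, 57.8 and 90.6 CPM in control and 65.4, 45.6 and 49.6 CPM in NRG1. NRG1 2 and NRG1 3 were its lowest libraries, while NRG1 1 lay level with control 1. The log2 fold change of HK2 was -0.41 (SE 0.23, adjusted p = 0.513 in edgeR), and -0.21 without control 3. The ratio of HK2 to HK1 in expected counts was 0.322, 0.373 and 0.604 in the controls and 0.337, 0.260 and 0.292 in the NRG1 libraries. The groups overlapped, with control 3 the highest (exact permutation p = 0.2 on the log2 ratio, two-sided, and 0.267 adjusted over the 4 ratios).

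PFKFB3 and PFKFB4 make and degrade fructose-2,6-bisphosphate; PFKFB3 strongly favours its synthesis. PFKFB3 was at 45.1, 39.6 and 89.7 CPM in the controls and 27.0, 43.7 and 42.7 CPM in the NRG1 libraries. Control 3 stood 2.12 times above the other controls, NRG1 1 was the lowest library, and the other 4 lay close together. Its log2 fold change was -0.62 (SE 0.34, adjusted p = 0.511 in edgeR), -0.17 without control 3 and 0.028 without control 3 and NRG1 1. PFKFB4 was at 34.6, 20.8 and 28.03 CPM in control and 14.6, 34.6 and 27.8 CPM in the NRG1 libraries, for a log2 fold change of -0.11 (SE 0.34, adjusted p = 0.913 in edgeR). NRG1 1 was again the lowest library, and without it the value was 0.16. The ratio of PFKFB3 to PFKFB4 was 1.302, 1.90 and 3.20 in control and 1.84, 1.26 and 1.53 in NRG1, with overlapping groups (exact permutation p = 0.4, two-sided, and 0.4 adjusted).

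LDHA encodes the muscle-type subunit of lactate dehydrogenase and LDHB, the heart-type subunit; the tetramers they form convert pyruvate and lactate into each other. LDHA was at 699, 441 and 495 CPM in the controls and 954, 508 and 519 CPM in the NRG1 libraries. NRG1 1 and control 1 were the highest libraries, and the groups overlapped. The log2 fold change was 0.28 (SE 0.29, adjusted p = 0.718 in edgeR) and turned to -0.086 without NRG1 1. LDHB was high in the same libraries, at 693, 415 and 529 CPM in control and 628, 374 and 365 CPM in the NRG1 libraries, for a log2 fold change of -0.26 (SE 0.27, adjusted p = 0.716 in edgeR).

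The ratio of LDHA to LDHB separated the groups with little spread within them. LDHA stood at 1.01, 1.06 and 0.937 times LDHB in expected counts in the controls, and at 1.52, 1.36 and 1.42 times in the NRG1 libraries. These counts are not corrected for gene length. Per kilobase of annotated exon the ratio was 0.484, 0.510 and 0.450 in control and 0.730, 0.653 and 0.683 in NRG1. On that scale LDHA lay below LDHB in every library. The length used is the union of all annotated exons, 6210 bases for LDHA, which can overstate the transcript present. The order of the 2 genes depends on it. The log2 ratio was 0.00 ± 0.090 in control (mean 0.00103) and 0.52 ± 0.082 in NRG1 (SD, n = 3 each), a difference of 0.52. The two-sided exact permutation p was 0.1, the smallest possible, and 0.2 adjusted over the 4 ratios. Neither gene passed the test on its own. Both genes have processed pseudogenes, so reads that fit several loci make their counts less certain.

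**Figure D2:**
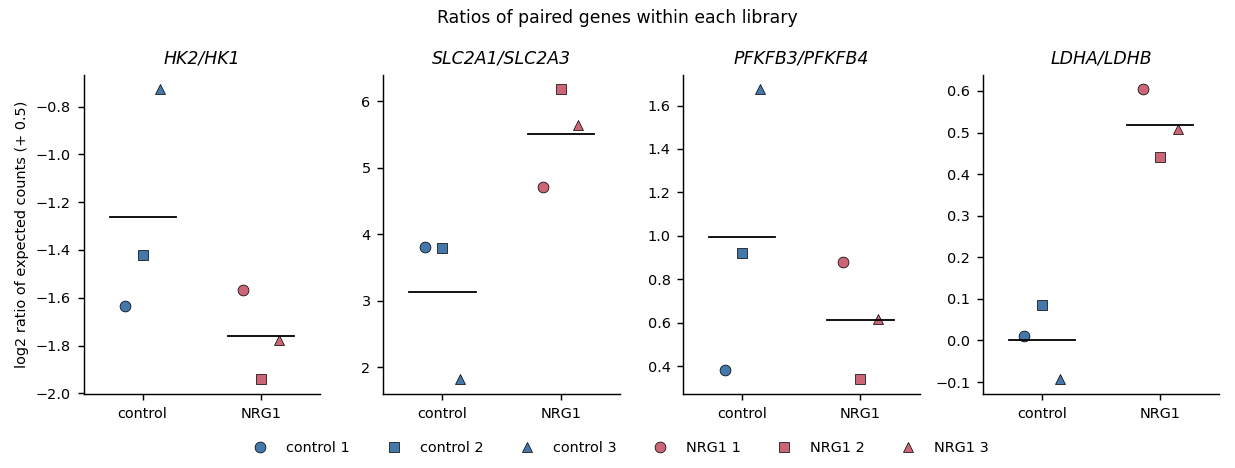
Log2 ratio of expected counts (0.5 added to each, vertical axis) for 4 pairs of genes in each library; colours are the groups, shapes the library numbers, and bars the group means. LDHA/LDHB and SLC2A1/SLC2A3 are higher in all 3 NRG1 libraries, and the axes do not start at 0.

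Among the hypoxia-induced members, NDRG1 encodes a cytoplasmic protein of stress and differentiation. It was at 285, 328 and 853 CPM in the controls and 209, 248 and 242 CPM in the NRG1 libraries. Control 3 was 2.78 times the mean of the other controls, and all NRG1 libraries lay below all controls. Group means were 489 ± 316 CPM and 233 ± 21.0 CPM (SD, n = 3 each), and the log2 fold change was -1.07 (SE 0.39; adjusted p = 0.40 in edgeR and 0.176 in DESeq2). Without control 3 the log2 fold change was -0.40 (SE 0.15, adjusted p = 0.518 in edgeR).

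CA9 encodes a carbonic anhydrase of the cell surface that acidifies the surroundings of hypoxic cells. It was the least abundant member in mean CPM over the 6 libraries, although SLC2A3 was lower in NRG1 2 (2.71 CPM) and NRG1 3 (3.69 CPM). It was at 3.87, 3.73 and 5.40 CPM in control and 2.35, 4.77 and 4.67 CPM in NRG1. NRG1 1 was the lowest library and the other NRG1 libraries lay inside the control range, with a log2 fold change of -0.14 (SE 0.38, adjusted p = 0.907 in edgeR). Its sign turned without control 3 (0.049) and without NRG1 1 (0.12). VEGFA, the main secreted angiogenic factor, was at 193, 251 and 257 CPM in control and 196, 260 and 263 CPM in NRG1. Its groups covered the same range, with 1 low library in each, and the log2 fold change was 0.04 (SE 0.18, adjusted p = 0.953 in edgeR).

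**Figure D3:**
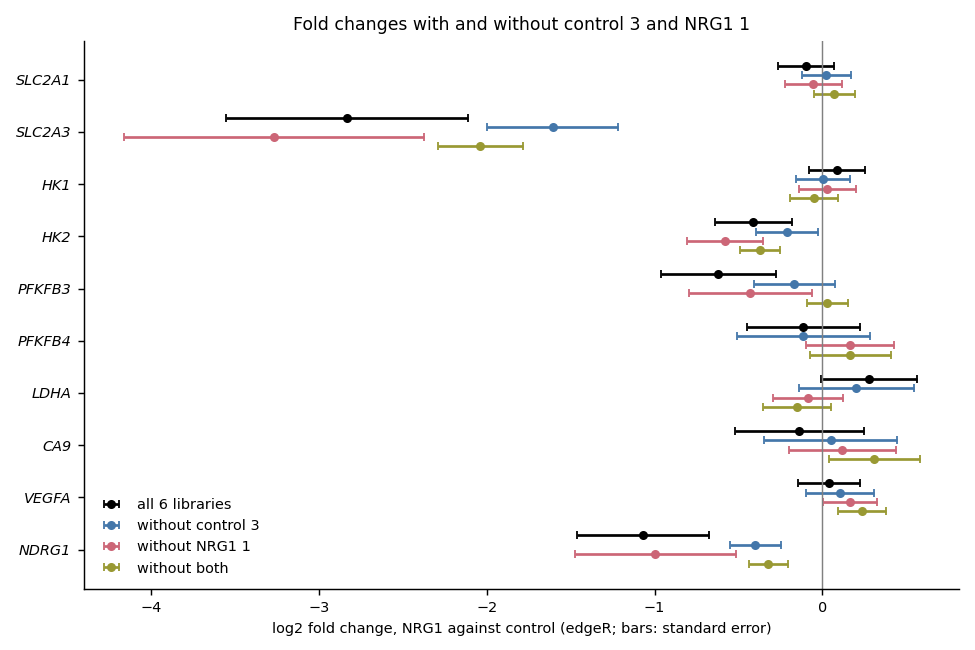
Log2 fold change of NRG1 against control from edgeR (horizontal axis, bars are the standard error) for each of the 10 genes, with all 6 libraries, without control 3, without NRG1 1 and without both. SLC2A3 stays at or below -1.61 in all 4 fits, NDRG1 moves from -1.07 to -0.32, and CA9, PFKFB3, PFKFB4, LDHA, HK1 and SLC2A1 change sign in at least 1 of them.

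Single libraries took the extremes for most of these genes. Control 3 was the highest library for 6 of the 10 genes and the lowest for 1, HK1. NRG1 1 was the lowest for 4 (PFKFB3, PFKFB4, CA9 and NDRG1) and the highest for 1, LDHA. Relative to the control mean on a log2 scale, the median of the 10 was -0.12, -0.28 and 0.28 in the controls, and -0.52, -0.03 and -0.07 in the NRG1 libraries. NRG1 2 and NRG1 3 thus lay within the control range in this median, and NRG1 1 below it.

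Per kilobase of annotated exon (the union of exons in GENCODE 29, matched by identifier), LDHA was the most abundant member, at 97.0 CPM per kb over the 6 libraries. SLC2A1 followed with 40.8, NDRG1 with 36.7 and HK1 with 27.7 CPM per kb. Below them came VEGFA with 16.4, HK2 with 10.3, PFKFB3 with 7.84, PFKFB4 with 4.38, SLC2A3 with 2.86 and CA9 with 2.47 CPM per kb. Only LDHA against SLC2A1 and HK1 against VEGFA were neighbours whose ranges over the libraries did not overlap. A union of exons overstates the length of a gene with many transcripts, such as VEGFA.

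The 3 genes that varied most over the libraries were SLC2A3, NDRG1 and PFKFB3, and the genes with the nearest pattern were sought among 10589 genes with at least 10 CPM on average. For SLC2A3 these were METAP1 (Pearson r = 0.9987 over 6 libraries), HROB (0.9986) and BRIP1 (0.9979). For NDRG1 they were SLFN11 (0.9974), FBXL12 (0.9968) and YEATS2 (0.9966), and for PFKFB3 LINC00863 (0.9969), BCL9 (0.9948) and ABTB2 (0.9924). All of these were highest in control 3: HROB was at 52.5 CPM there and at 7.66 to 20.3 CPM elsewhere, and SLFN11 at 190 CPM against 76.8 to 97.2 CPM. Pearson r takes no account of the size of a change. METAP1 ran only from 75.8 CPM in NRG1 2 to 118 CPM in control 3, where SLC2A3 ran from 2.71 to 66.2 CPM. Such likeness was common, as 271, 358 and 155 genes had r above 0.95 with SLC2A3, NDRG1 and PFKFB3, and the points share the same 6 libraries.

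Other genes of the pathway were read from 12 lists, each without the 10 members. Of the 104 genes tested, 0 passed edgeR over all genes, while 8 in the higher and 5 in the lower direction had a p under 0.05 before adjustment (beside 4.64% and 6.51% of all tested genes). DESeq2 called 1, ANGPTL4 (beside 1.36%). Groups did not overlap for 13 higher genes (12.5%, beside 9.36% of all tested genes) and for 6 lower ones (5.77%, beside 10.2%). The median log2 fold change was 0.01 (0.00749). In the 2 against 2 comparison 12 were called as higher and 5 as lower, beside 4.91% and 4.71% of all tested genes.

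Of the other glucose carriers, 8 were tested, 6 had a log2 fold change below 0, and the list's median was -0.30. SLC2A8, an intracellular carrier, was at 37.9, 34.2 and 21.5 CPM in control and 18.4, 19.2 and 19.9 CPM in NRG1. SLC2A13, a carrier of inositol, was the other one that lay lower in every NRG1 library (11.9 to 20.6 CPM in control and 11.1 to 11.6 CPM in NRG1). That made 2 of 8 lower and 0 higher without overlap, beside 10.2% and 9.36% of all tested genes. SLC2A9, a urate carrier, was at 21.1 to 30.4 and 21.0 to 22.4 CPM, SLC2A10 at 18.7 to 26.6 and 16.7 to 23.1 CPM, and SLC2A11 at 14.98 to 18.6 and 13.7 to 28.1 CPM.

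Of the glycolytic enzymes beyond the hexokinases, the 4 most abundant were high in the same libraries of both groups. GAPDH, which oxidises glyceraldehyde phosphate, was at 2949, 2420 and 2658 CPM in the controls and 3116, 2148 and 2034 CPM in the NRG1 libraries. ENO1, the main enolase, was at 1705, 880 and 1352 CPM and at 1844, 1007 and 965 CPM. PKM, the pyruvate kinase of most cells, was at 1478, 911 and 1134 CPM and at 1600, 1225 and 1123 CPM, and the aldolase ALDOA at 710, 514 and 677 CPM and at 728, 502 and 451 CPM. In each of these 4 genes NRG1 1 and control 1 were the 2 highest libraries. The list of 14 tested enzymes had a median log2 fold change of -0.03, and their median log2 level against the control average stood at 0.21 in control 1 and 0.22 in NRG1 1, against -0.25 to 0.00 (-0.00147) in the other controls and -0.15 in the other NRG1 libraries. ENO2, the neuronal enolase, was the 1 enzyme of the 14 whose groups did not overlap, beside 9.36% higher and 10.2% lower of all tested genes. It was at 27.7, 28.2 and 46.1 CPM in control and 16.6, 21.5 and 19.3 CPM in NRG1 (log2 fold change -0.83, SE 0.26, adjusted p = 0.379 in edgeR; chosen after its values were seen).

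PFKFB2 and TIGAR, the 2 tested genes of the fructose bisphosphate switch outside the members, overlapped between groups (59.1 to 88.7 and 72.3 to 78.7 CPM for PFKFB2, 22.6 to 32.7 and 22.9 to 30.4 CPM for TIGAR). In lactate and pyruvate handling, 14 genes were tested with a median of 0.08. The monocarboxylate carriers SLC16A1 and SLC16A3, which move lactate across the membrane, were at 183 to 219 and 218 to 290 CPM in control and at 136 to 227 and 175 to 284 CPM in NRG1. BSG, the chaperone of these carriers, was at 685 to 724 CPM in control and 521 to 684 CPM in NRG1, lower in every NRG1 library by a small margin. PDK1, a kinase that shuts pyruvate out of the mitochondrial pathway and a HIF target, was at 16.04, 14.2 and 9.88 CPM in control and 21.9, 25.7 and 28.4 CPM in NRG1, higher in every NRG1 library (log2 fold change 0.92, SE 0.25, adjusted p = 0.359 in edgeR; chosen after its values were seen).

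The HIF factors and oxygen sensors numbered 10 tested genes with a median of 0.20, and 7 of them were above 0. EPAS1, which encodes HIF-2 alpha, was at 174, 180 and 187 CPM in control and 218, 249.3 and 235 CPM in NRG1, higher in every NRG1 library, with a log2 fold change of 0.38 (SE 0.14, adjusted p = 0.399 in edgeR). HIF1A was at 345, 296 and 307 CPM and at 465, 307 and 334 CPM, with overlapping groups. ARNT, their shared partner, was at 65.9 to 83.3 and 72.0 to 74.5 CPM, and the inhibitor HIF1AN at 107 to 121 and 112 to 117 CPM. EGLN1, the main oxygen-sensing hydroxylase, was at 55.5 to 57.0 CPM in control and 63.4 to 68.0 CPM in NRG1. HIF factors are regulated mainly as proteins, which were not measured.

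The 30 hypoxia-induced genes outside the members did not move one way: 16 were above 0 and 14 below, with a median of 0.02. Their 4 most abundant genes were DDIT4, PGK1, SLC16A3 and STC2. DDIT4, an inhibitor of mTOR, was at 1005, 551 and 241 CPM in control and 766, 646 and 637 CPM in NRG1. PGK1, a glycolytic kinase, was at 488, 293 and 329 CPM and at 692, 402 and 409 CPM, and STC2, a secreted glycoprotein, at 305, 285 and 129 CPM and at 239, 185 and 198 CPM. Groups did not overlap for 6 higher genes (PDK1, GBE1, AK4, BNIP3L, PLOD2 and INSIG2) and 2 lower ones (CA12 and ENO2), beside 9.36% and 10.2% of all tested genes. CA12, a carbonic anhydrase of the cell surface like CA9, was at 65.6, 31.4 and 38.8 CPM in control and 25.6, 19.4 and 18.8 CPM in the NRG1 libraries, for a log2 fold change of -1.09 (SE 0.30, adjusted p = 0.359 in edgeR). BNIP3L, a receptor of mitochondrial autophagy, was at 62.2, 75.1 and 60.8 CPM and at 102, 95.7 and 97.9 CPM, for a log2 fold change of 0.58 (SE 0.15, adjusted p = 0.354 in edgeR). ANGPTL4, a secreted inhibitor of lipoprotein lipase, was at 8.46, 1.51 and 11.2 CPM and at 1.98, 1.03 and 0.76 CPM, with 1 control inside the NRG1 range. BNIP3L and ANGPTL4 were chosen after their values were seen.

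**Figure D4:**
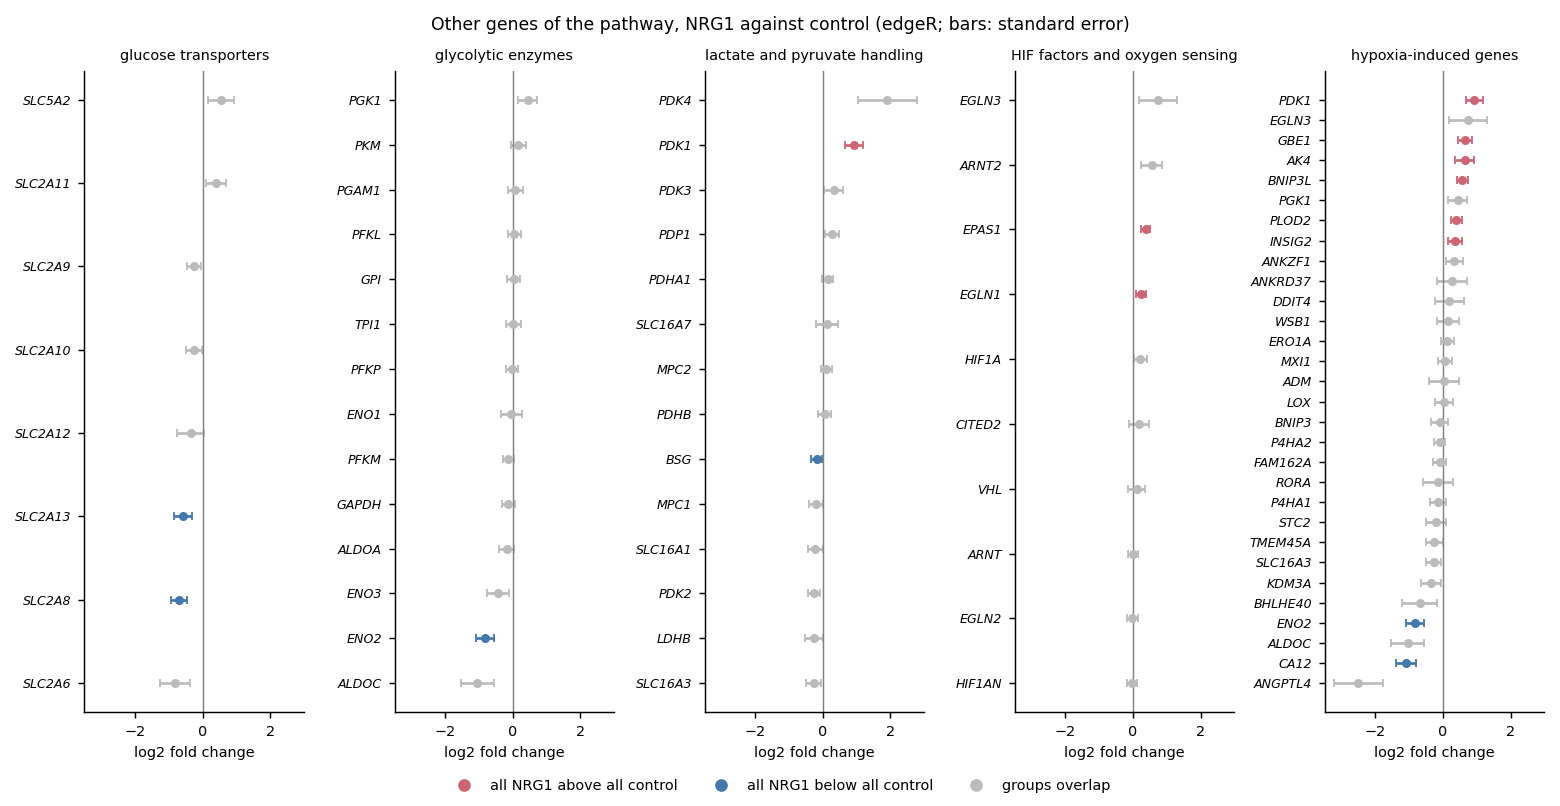
Log2 fold change of NRG1 against control from edgeR (horizontal axis, bars are the standard error) for the tested genes of 5 lists without the 10 members; red and blue mark genes whose groups do not overlap, grey those that overlap. Hypoxia-induced genes lie on both sides of 0, with 6 red and 2 blue.

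Relatives of the hypoxia-induced members gave further contrasts. VEGFB, a VEGF family ligand, was at 15.9, 19.7 and 13.8 CPM in control and 24.7, 34.3 and 31.2 CPM in NRG1, while PGF, placental growth factor, was at 7.25, 10.4 and 22.8 CPM and at 5.93, 5.89 and 5.43 CPM. Neither passed edgeR (log2 fold change 0.87, adjusted p = 0.354, and -1.23, adjusted p = 0.39). The co-receptors NRP1 and NRP2 were at 17.6 to 33.9 and 5.64 to 10.3 CPM in control and 18.7 to 61.4 and 5.14 to 7.66 CPM in NRG1. NDRG3, the closest of the NDRG family in abundance to NDRG1, was at 55.3 to 97.8 CPM in control and 87.7 to 91.9 CPM in NRG1; NDRG2 was at 3.55 to 6.53 and 5.81 to 14.7 CPM, and NDRG4 at 5.35 to 9.91 and 5.51 to 7.38 CPM. Of 5 carbonic anhydrases tested beyond CA9, CA2 was at 11.8 to 22.4 and 15.3 to 26.5 CPM, CA5B at 13.9 to 24.4 and 15.2 to 16.4 CPM, and CA11 at 7.26 to 9.69 and 5.07 to 19.2 CPM.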

How the data were processed

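The deposited expected counts, one table of 57736 genes and not normalized, were made with tools that the submitters' processing notes name without their roles: STAR 2.5.3a, RSEM 1.3.0, FastQC 0.11.3 and MultiQC 0.9, with hg19. No source used here names the annotation. A second deposited table holds log2 values of 14759 genes; TMM-scaled log2 CPM recomputed with a prior of 0.25 matched them to within 4.97e-14, and served as a check. Groups and numbers came from sample titles.

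Counts were rounded and tested with edgeR 4.0.16 (R 4.3.3; filterByExpr, TMM, quasi-likelihood F-test of the group term alone, Benjamini-Hochberg over 15421 genes). These held at least 99.7% of the counts of every library, and genes of low level carry more counting error. DESeq2 1.42.0 and limma 3.58.1 gave alternatives; DESeq2 left 15 adjusted p undefined. Levels are TMM-scaled CPM; log2 levels had 0.25 CPM added. Symbols matched 51959 identifiers. TXNIP was not analysed here. edgeR was tested on simulated counts.

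The members, the 12 pathway lists (165 entries), the 5 marker lists and the tests were chosen with earlier results of these data known. The genes named were the 10 members, up to 4 other tested genes of each list by mean CPM (1 of them is not reported here), and the 3 nearest patterns of the 3 most variable members; others are said to be chosen after their values were seen or are named because their groups did not overlap.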

Additional observations from a re-analysis of the deposited data

How the results depend on the processing

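Over 16 alternative fits, SLC2A3, NDRG1 and HK2 stayed below 0 in all, and no scaling turned a sign. Members called numbered 1 with DESeq2, 2 with no low-count filter, 1 in the 2 against 2 comparison and 0 otherwise. Other pathway genes called numbered 1, 1 and 17 in those 3 settings and 0 otherwise. Members higher without overlap numbered 0 to 2 when 1 library was left out (2 without control 1) and 2 in the 2 against 2 comparison. Members lower without overlap numbered 2 or 3 in these same settings. Smaller groups fail to overlap more easily, and the share of all tested genes was not computed for these settings. These counts therefore say nothing about the members in particular. That comparison turned the log2 fold change of SLC2A1 (0.071), HK1 (-0.050), PFKFB3 (0.028), PFKFB4 (0.17), LDHA (-0.15) and CA9 (0.31). Leaving out 1 library gave ranges across 0 for SLC2A1 (-0.21 to 0.023), PFKFB4 (-0.39 to 0.16), LDHA (-0.086 to 0.49), CA9 (-0.30 to 0.12) and VEGFA (-0.083 to 0.16). The cause was not tested. The 4 log2 ratios kept their direction in every alternative, but without control 3 the difference fell in size from -0.38 to -0.041 for PFKFB3/PFKFB4 and from -0.50 to -0.23 for HK2/HK1. All genes called numbered 1 with edgeR, 209 with DESeq2, 218 with no filter, 49 without NRG1 1, and 757 higher and 727 lower in the 2 against 2 comparison (4.91% and 4.71%). With the replicate number as a block, 0 members were called and SLC2A3 was at -2.44. Over all tested genes, same-numbered libraries deviated from their group means together by r = 0.02 (0.0198), 0.125 and -0.0801. Control 3 and NRG1 1 stand apart and carry different numbers, so these r cannot decide whether the numbers pair the libraries. CA9 and SLC2A3 are limited by depth, with 18.6 and 28.8 expected counts in their lowest libraries.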

Other observations

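Neighbouring routes of glucose metabolism held no gene that passed edgeR with Benjamini-Hochberg adjustment; 1 of the 8 pentose phosphate genes and 1 of the 9 glycogen genes tested had an unadjusted p under 0.05, both higher (beside 4.64% of all tested genes). In the pentose phosphate pathway, which makes NADPH and ribose, TKT was at 647, 452 and 597 CPM in the controls and 491, 457 and 414 CPM in the NRG1 libraries. PGD was at 223, 125 and 218 CPM and at 183, 128 and 132 CPM, and TALDO1 at 120 to 142 and 111 to 127 CPM. The median log2 fold change of this list was -0.24. Among genes of glycogen, 3 of 9 lay higher in all 3 NRG1 libraries and 0 lower (beside 9.36% and 10.2% of all tested genes), with a median of 0.08. GBE1, the branching enzyme, was at 50.9, 42.2 and 34.0 CPM in control and 77.3, 62.0 and 60.8 CPM in NRG1, and PGM2 at 59.7, 62.0 and 46.8 CPM and at 77.5, 69.4 and 69.3 CPM. PYGB, a glycogen phosphorylase, was at 273 to 389 and 271 to 352 CPM, PYGL at 79.9 to 121 and 72.4 to 110 CPM, and UGP2 at 93.3 to 111 and 95.5 to 122 CPM.

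Of the glucose-sensing factors, MLXIPL, which encodes the carbohydrate response factor ChREBP, was at 18.7, 22.6 and 20.9 CPM in control and at 13.5, 49.8 and 45.5 CPM in NRG1. Its target ARRDC4 was at 44.1, 62.0 and 75.0 CPM and at 56.6, 88.7 and 99.98 CPM. In both genes NRG1 1 lay below the highest control and NRG1 2 and NRG1 3 above it. MLXIP was at 98.8 to 111 and 76.6 to 101 CPM, and MLX at 72.5 to 89.9 and 61.7 to 77.0 CPM.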
